A study of Mus musculus with 3 samples.

Results

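The class I odorant receptors of mouse chromosome 7 were described at 91 promoter positions, out of 1085 positions that the authors named for the whole receptor family. The members were the rows of the authors' promoter table on chromosome 7 from 109629085 to 112515652 (build mm9) that carry a receptor name from Olfr543 to Olfr692, or Olfr33. Names that occur in more than 1 row were left out (3 names with 6 rows), as were Olfr545 and Olfr558. The rule uses names and coordinates alone, but it was set with earlier results of these data known. Every sample was RNA from olfactory epithelia of 5 pooled mice of the C57/Bl6 strain, adults of 6 to 8 weeks, and the labels give no treatment or genotype. Capped 5′ ends were captured by RLM-RACE, which ligates an RNA oligonucleotide to decapped mRNA. The cDNA was made with degenerate primers to receptor coding sequence and read on tiling arrays. The Stringent group, 1 array, carried a nested PCR product. The High Coverage group, 2 arrays, carried products of PCR without nesting, and their file headers name the input of High Coverage 1 female and that of High Coverage 2 male.

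Odorant receptors are G protein-coupled receptors of olfactory sensory neurons, and each neuron expresses very few of them. Class I receptors are the older, fish-like branch of the family. In mammals they lie together in 1 cluster, which also encloses the beta-globin locus, and many of the class I receptors with known ligands respond to acids and other small hydrophilic odorants. Typical receptor genes have short noncoding 5′ exons, followed by an intron and a single coding exon, so that the transcription start can lie kilobases upstream of the start codon. Within the cluster, the 91 members spanned 2887 kb, with 47 on the plus strand and 44 on the minus strand. Neighbouring members lay a median of 19409 bp apart (5809 to 354085), and the widest gap separated Olfr649 from Olfr651.

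Of the 91 names, 88 matched the RefSeq gene table (GRCm38.p6), all as protein-coding genes, and 76 had a RefSeq promoter window. The RefSeq start was an ATG in 62 of the 76, or 81.6%, against 72.4% of 946 receptor windows and 5.83% of all 32851 windows. The following 30 bases show this for members on which the results turn. They begin 10 bases before the RefSeq start, are given in the direction of transcription (RefSeq, GRCm38.p6), and have the ATG in capitals where it sits at the RefSeq start.
Olfr643 (minus strand, chr7:104059581-104059610): aagttccagaATGggaggtgaagcccacaa
Olfr611 (minus strand, chr7:103518363-103518392): ccctgacaacATGcttcatgtcaacatcac
Olfr642 (minus strand, chr7:104050333-104050362): agcaaccctcATGagaaccttgtacagtaa
Olfr691 (minus strand, chr7:105337695-105337724): agtgagcatcATGattcatagcaacatcac
Olfr652 (plus strand, chr7:104564142-104564171): ggaaaggtattgggaaagtttggctggacc
Olfr690 (minus strand, chr7:105330259-105330288): ctgtgatgtttgcttgcctttgaccagacc
The first 4 models open with the ATG of a start codon, and those of Olfr652 and Olfr690 open with other sequence.

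The named positions are not these RefSeq starts, as the spacing of neighbours shows. In 8 pairs of neighbouring members that point away from each other, the named positions were closer together than the RefSeq starts in all 8, by a median of 8009 bp for the pair (5776 to 9728). This sets a distance within mm9 against one within GRCm38.p6, and no position was carried between the builds. Strand was the same in the table and in RefSeq for 75 of 76 members, the exception being Olfr589.

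Sequence at the mapped positions was not analysed here, since no mm9 genome was used. Motifs were counted at the RefSeq starts instead, most of which begin at an ATG. In the 250 bases before and 50 after the RefSeq start, with both strands searched, the O/E motif CCCNNGGG, bound by the Olf/Ebf factors, was present in 2 of 76 member windows, or 2.63%. All receptor windows had it in 3.07%, and all windows in 13.7%. The homeodomain motif TAATTA was present in 9 (11.8%, against 18.6% and 5.29%). The related TAATTG, which can overlap it, was present in 17 (22.4%, against 23.3% and 8.00%). The TATA box letters TATAAA were present in 31 (40.8%, against 41.1% and 13.6%).

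The measured value of a position was the highest MAT score within 100 bp. A MAT score compares the brightness of neighbouring probes with that predicted from their sequences, on a natural log scale, relative to the same array. To set arrays side by side it was also given as a percentile among the 2188086 scored probes of that array. The windows held a median of 38 scored probes, and 2 members, Olfr553 and Olfr589, had none and gave no value. A called region is an interval that the authors found above a MAT score of 2.52, 2.53 and 2.99 on the respective arrays. The MAT p-values that the headers give with these cutoffs are 1.75e-09, 1.72e-06 and 2.97e-07. The lists thus stand at unlike cutoffs, with Stringent the strictest in p. Where 3 values follow each other, they are those of Stringent, then the first, then the second High Coverage array. With 1 array against 2, no test between groups was run. Intervals are exact Clopper-Pearson intervals at 95% over positions, which are not replicates, and cover counting error only. Fewer neurons that express a receptor and less of its RNA in each neuron cannot be told apart in this tissue RNA. Neither can be told apart from a lower yield of the degenerate primers and PCR for that receptor. Probes carry no gene names, so markers of olfactory neurons were not analysed here. No source used here says how the authors set the positions. They may not be independent of signal on these probes, so a rise at the position is a description.

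On Stringent a minority of class I positions carried a region. It was 41 of 91, or 45.1% (34.6 to 55.8), where 61.7% of all 1085 named positions had one. Other chromosome 7 positions had 60.2% of 133, and those on the other chromosomes had 63.6% of 861. A region was called at 33 class I positions on High Coverage 1, or 36.3% (26.4 to 47.0), against 36.4% of all. High Coverage 2 had 36, or 39.6% (29.5 to 50.4), against 43.6% of all. Both High Coverage shares were near the background of the family. With each High Coverage list limited to its 3608 highest-scoring regions, the number that Stringent has, they were 19.8% and 27.5%, against 24.4% and 33.5% of all positions.

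The regions at class I positions were short on Stringent. Their median length was 234 bp (129 for Olfr583 to 649 for Olfr599), against 322 bp on other chromosomes, and the median region score of the authors was 8.50 against 12.9. The High Coverage medians of 174 and 206.5 bp stood beside 192 and 209 bp. The highest score within 100 bp had a median of 2.13 on Stringent with quartiles of 0.922 and 6.07, against a median of 4.61 on other chromosomes. The class I medians on the High Coverage arrays were 1.73 against 1.37 and 2.18 against 2.01. As percentiles, the class I medians were almost level across the arrays, at 93.0, 92.9 and 92.8. Over all named positions they were 94.4, 91.3 and 92.4. Below the 75 percentile lay 4 of 89 members on Stringent and 18 on each High Coverage array. The whole table had the same unlike spread, with 26, 211 and 214 of 1079 positions.

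**Figure D1:**
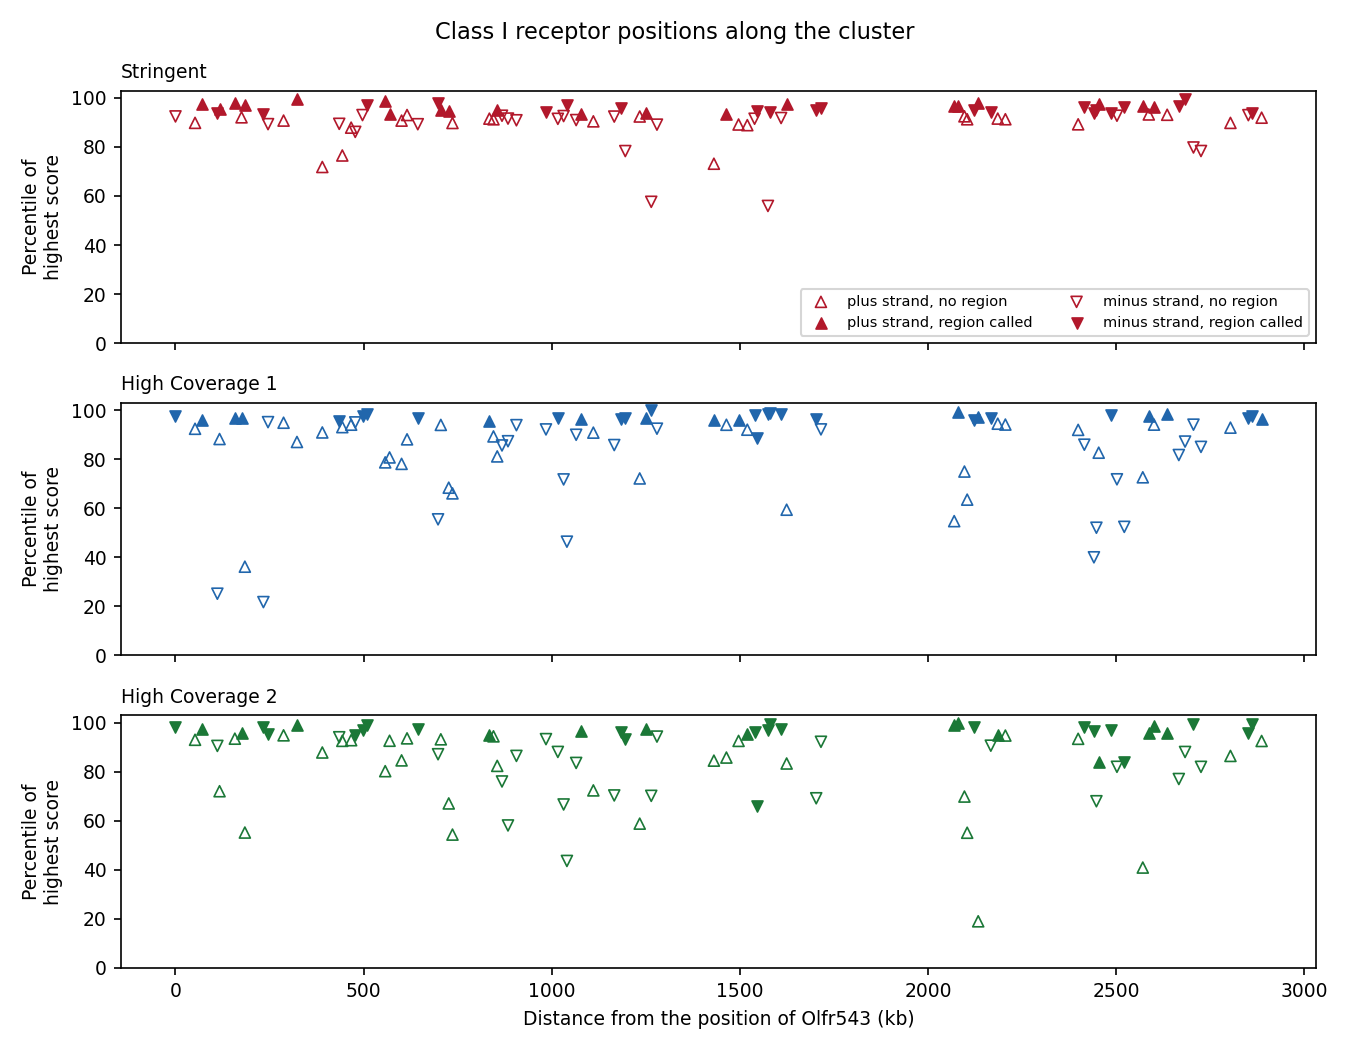
Percentile of the highest score within 100 bp (vertical axis) for each class I position against its distance from Olfr543 in kb (horizontal axis), 1 panel per array; triangles point up for the plus strand and down for the minus strand, and are filled where a region was called. On Stringent 4 members lie below 75, with Olfr642 and Olfr629 lowest at 55.9 and 57.6, against 18 on each High Coverage array.

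Median signal was higher on the transcribed side of the class I positions than before them on each array. The Stringent median went from -1.02 in the bin that ends 50 bp before the position to 1.09 in the bin that follows it and 1.19 in the one after. The same bins of High Coverage 1 held -0.723, 0.847 and 0.522, and those of High Coverage 2 held -0.855, 1.40 and 0.630. Positions on other chromosomes had a higher Stringent profile, at 2.27 and 3.76 in those downstream bins. Their High Coverage profiles in the first 50 bp were lower than those of class I, at 0.0988 and 0.374. In the next 50 bp they were 0.163 and 0.613, the second almost level with class I. From 100 bp on they were higher than class I on both arrays. At 100 to 150 bp they were -0.207 and 0.0715, against -0.489 and -0.296. The quartile ranges of both sets overlapped in these bins, and no test of the difference was run.

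**Figure D2:**
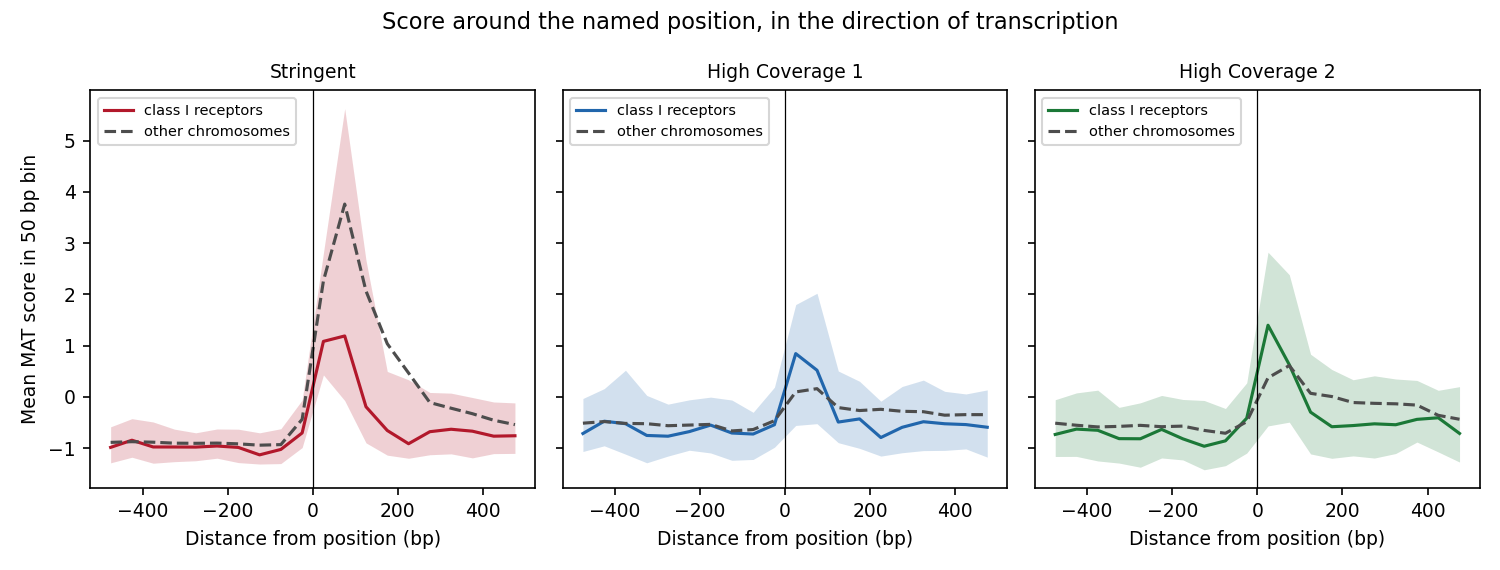
Median over positions of the mean MAT score in 50 bp bins (vertical axis) against distance from the named position in bp, downstream to the right, 1 panel per array; the coloured line is the class I receptors with their quartiles shaded, and the dashed line is the positions on other chromosomes. The class I line peaks at 1.19 on Stringent, under the dashed line. On the High Coverage arrays it peaks at 0.847 and 1.40, above the dashed line, and lies below it from 100 bp on.

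Position by position, means over 150 bp were higher after than before the position at 81 of 88 class I members on Stringent, or 92.0%, where 94.5% of all positions did so. It was 64 of 88 on High Coverage 1, or 72.7% against 70.3%, and 69 of 88 on High Coverage 2, or 78.4% against 74.6%. All 3 shares were close to the background. Where a region was called, the rise was present at 41 of 41, 30 of 33 and 34 of 36 members, near the 99.4%, 83.9% and 90.6% of all positions with a region. With no region called, Stringent rose at 40 of 47 members, or 85.1%, with a median step of 0.657 MAT score units over the 47. All positions without a region were much the same, at 86.7% and 0.718. The 5′ edge of the region had a median place of -44 bp on Stringent (quartiles -54 and -29), and of -39 and -42 bp on the High Coverage arrays. It fell within 100 bp of the position for 41 of 41, 32 of 33 and 34 of 36 regions. On other chromosomes these shares were 98.4%, 87.0% and 89.8%.

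Across the arrays, the class I positions split into 4 groups. A region was called in both groups of arrays at 23 members (25.3%, against 33.4% of all positions), on Stringent alone at 18 (19.8% against 28.3%) and on High Coverage alone at 23 (25.3% against 19.5%). No array had one at 27 members, or 29.7%, where 18.8% of all positions had none. All 3 arrays called a region at 11 members, or 12.1%, against 17.3% of all. No test was run on these shares.

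The members that stood high on every array were, by the highest of their lowest percentiles, Olfr578, Olfr652, Olfr549, Olfr623, Olfr655, Olfr679, Olfr643 and Olfr628, all of them odorant receptors. Olfr578, at 110137869 on the minus strand, scored 11.0, 7.08 and 11.8. Its regions began 44, 34 and 39 bp before the position and ended 199, 179 and 194 bp after it, so all 3 arrays marked the same short interval. Olfr652, at 111709376 on the plus strand, scored 9.68, 11.5 and 21.0. Olfr643, at 111209960 on the minus strand, scored 3.70, 7.96 and 15.0, lowest on Stringent. Olfr549 was the reverse, with 13.0 on Stringent against 2.86 and 5.86. Of these 8, Olfr679 had no region on High Coverage 1, where it scored 2.04, and the other 7 had a region on all 3 arrays. The other 4 of the 11 members with a region on all 3 arrays were Olfr615, Olfr640, Olfr670 and Olfr691.

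Other members stood high on Stringent and low without nesting. Olfr611, at 110669381 on the minus strand, scored 11.1, -0.560 and -0.675, or the 97.0, 46.4 and 43.6 percentiles. Olfr556 scored 11.2, -0.765 and -0.405. Olfr677 scored 10.8, 0.113 and -0.734, and Olfr668 scored 5.37, -0.442 and -0.0299. In each of these, both High Coverage arrays stayed below their thresholds. These 4, with Olfr654 and Olfr593, were the 6 with the widest gap in percentile between Stringent and the higher of the High Coverage arrays. Olfr654 had no region on any array, with Stringent at 1.09. The top Stringent scores of the cluster, chosen after their values were seen, were at Olfr564 (18.0), Olfr684 (17.7) and Olfr582 (15.9). Olfr684 and Olfr582 had no High Coverage region, and Olfr564 had one on High Coverage 2 at 12.5.

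The opposite pattern was seen as well. Olfr642, at 111203619 on the minus strand, scored -0.641, 6.40 and 4.90, or the 55.9, 98.4 and 96.8 percentiles. Both High Coverage regions began 30 bp before its position, and Stringent had none there, although its mean score rose by 0.66 across the position. Olfr624 scored -0.189, 3.55 and 2.33. Olfr685 reached 12.6 on High Coverage 2 alone, with -0.138 on Stringent and 2.04 on High Coverage 1. Olfr629 had the highest class I score of any array, 24.4 on High Coverage 1, but 0.0509 on High Coverage 2 and -0.615 on Stringent. Olfr572 and Olfr568 had scores of -0.244 and -0.361 on Stringent and from 1.22 to 2.10 on High Coverage, all under the thresholds.

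**Figure D3:**
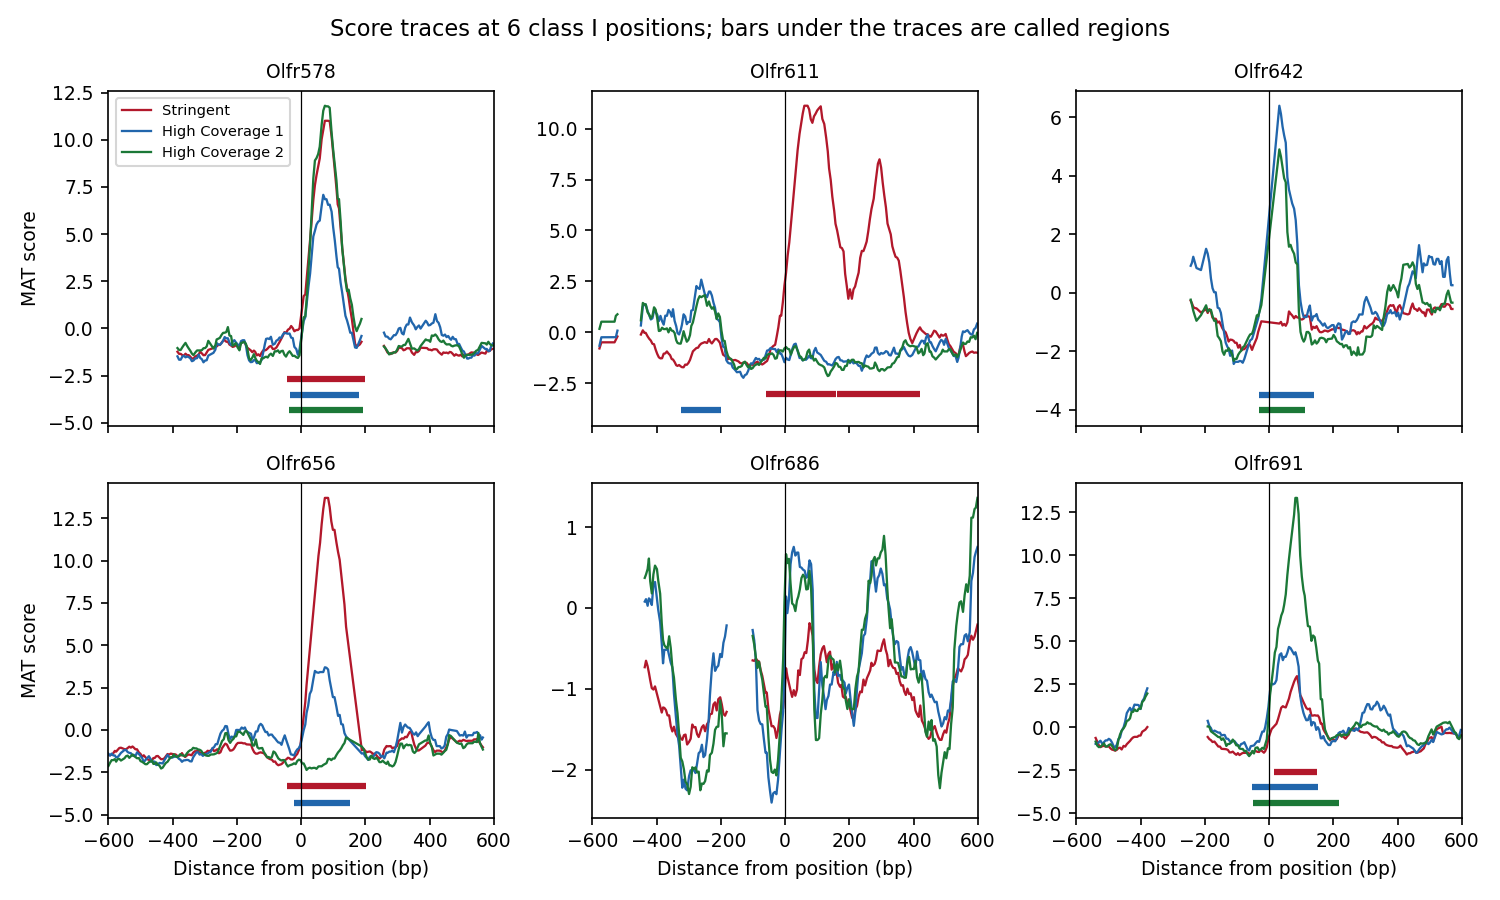
MAT score (vertical axis) against distance from the named position in bp, downstream to the right, at 6 class I positions; red is Stringent, blue High Coverage 1 and green High Coverage 2, bars under the traces are called regions, and breaks are stretches without scored probes. All 3 traces peak just downstream at Olfr578, Stringent alone at Olfr611, both High Coverage arrays alone at Olfr642, and Olfr656 lacks the High Coverage 2 peak; Olfr686 has no region, and High Coverage 2 is highest at Olfr691.

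Differences between the groups were set beside the difference between the High Coverage arrays, the only replicate spread available. The 95th percentile of that difference over all scored positions was 34.3 percentile points. By this limit 6 of 89 members were higher on Stringent than on the mean of High Coverage (8.80% of all positions). They were Olfr551, Olfr556, Olfr611, Olfr656, Olfr668 and Olfr677. Without High Coverage replicate 2 there were 10, and on a median and MAD scale 22. Shares over all positions are not given for these settings, so neither count is read as a trait of class I. The 1 member that was lower was Olfr642, where 1.20% of all positions were lower. The median difference was 0.320 points for class I, 1.83 at other chromosome 7 positions and 4.73 on other chromosomes. Stringent stood above both High Coverage arrays at 35 members and below both at 40. At other chromosome 7 positions it stood above at 64 and below at 52 of 133. On other chromosomes it stood above at 487 and below at 239 of 857.

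The High Coverage arrays themselves were apart by more than that limit at 5 members (5.00% of all positions, a share fixed by the limit). Olfr656 scored 13.7 on Stringent and 3.70 on High Coverage 1 but -1.27 on High Coverage 2. Olfr33 scored 2.79, -1.08 and 8.47, with a High Coverage 2 region whose 5′ edge lay at -260 bp. Olfr551 scored 3.25, -0.998 and 1.63. Olfr667 scored 3.21, -0.689 and 4.40, and Olfr651 scored 9.73, -0.383 and 11.1. In 4 of the 5, High Coverage 1 was the low array. Over all positions, High Coverage 2 was likewise the higher array at 36 of the 54 that were apart. All 5 members had a Stringent region, where 61.7% of all named positions had one. A difference between the High Coverage arrays cannot be told apart from one between the sexes named in the headers. The median absolute difference over the members was 3.26 percentile points.

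Across the 89 members, the High Coverage arrays had Spearman's rho = 0.543 and Pearson's r = 0.340 for the highest score. Stringent had rho = -0.230 and r = -0.163 with High Coverage 1, and rho = -0.0203 and r = 0.126 with High Coverage 2. These are descriptions across positions, which are not independent replicates, and the arrays share probes and base composition at each position. Over all 1079 scored positions, rho was 0.629 between the High Coverage arrays. Stringent had rho = -0.133 with High Coverage 1 and 0.0672 with High Coverage 2. In class I as in the whole table, positions that ranked high on Stringent were not in general those that ranked high without nesting.

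**Figure D4:**
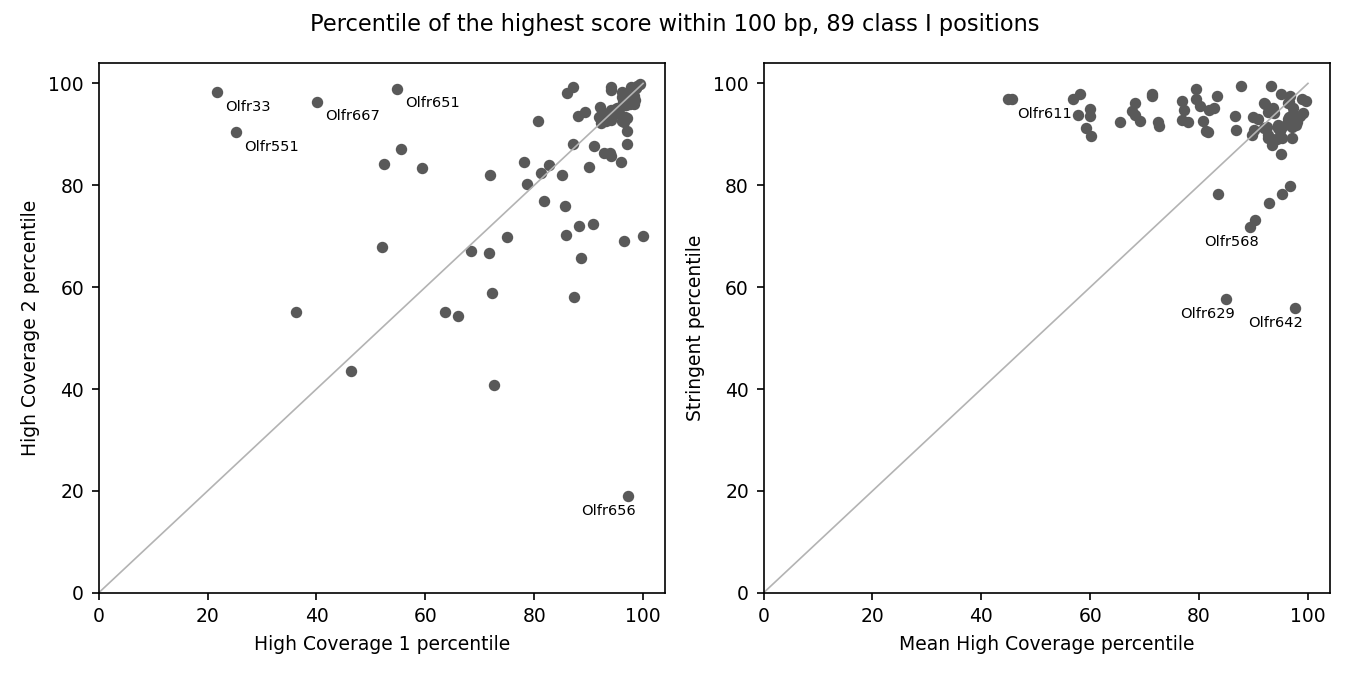
Percentile of the highest score within 100 bp for 89 class I positions; the left panel sets High Coverage 2 (vertical) against High Coverage 1 (horizontal), the right panel Stringent (vertical) against the mean of both (horizontal), and the line marks equal values. On the left, Olfr656 lies far below the line and Olfr33, Olfr551, Olfr667 and Olfr651 far above it; on the right, Olfr642 and Olfr629 lie below it and Olfr611 above.

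Regions were sought from 100 bp to 8 kb downstream, stopping short of the next named position. On Stringent 64 of 91 members had one, or 70.3%, where 88.0% of all positions did. High Coverage 1 had one at 88, or 96.7% against 96.0%, and High Coverage 2 at 83, or 91.2% against 93.0%. The same reach upstream held a region at 22, 49 and 51 members on the 3 arrays, or 24.2%, 53.8% and 56.0%, against 23.9%, 51.2% and 47.7% of all positions. High Coverage regions thus lay upstream as well at many members, as over all positions. Whether they belong to transcripts of neighbours was not tested. Of the 41 members with a Stringent region at the position, 38 had one downstream, or 92.7%, against 95.8% of such positions in all. Of the 50 without, 26 did, or 52.0%, against 75.5% of such positions in the whole table.

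No Stringent region was found anywhere from 100 bp upstream to 8 kb downstream at 24 members, or 26.4% (17.7 to 36.7). The share was 9.40% of all positions, 16 of the 133 other chromosome 7 positions and 7.20% on other chromosomes. High Coverage 1 lacked one at 3 members, or 3.30% against 3.04% of all, and High Coverage 2 at 7, or 7.69% against 5.16%. The intervals of the class I share on Stringent and that of other chromosomes (5.57 to 9.14) did not meet. The interval of other chromosome 7 positions overlapped that of class I. These cover counting error only, and members of 1 cluster are not independent. The 24 include Olfr553 and Olfr589, whose windows had no scored probe. The other 22 had a median of 991.5 scored probes over this stretch, against 1039 over all members. Of the 24, 15 had a High Coverage region at the position itself, and 21 had one downstream on both High Coverage arrays. Over all named positions, 102 lacked a Stringent region in this stretch, and the same counts were 64 and 72. The first count is thus near the background. Among the 24 members were both ends of the cluster, Olfr543 and Olfr692, and Olfr642, Olfr629, Olfr624, Olfr685, Olfr572, Olfr568, Olfr618 and Olfr686. The reach of 8 kb was chosen after seeing the data. With 12 kb the Stringent share of members was 23.1%, and with 4 kb it was 34.1%, beside 15.4% on each High Coverage array. Shares over all positions are not given for 4 and 12 kb, so the contrast with them is shown at 8 kb alone.

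**Figure D5:**
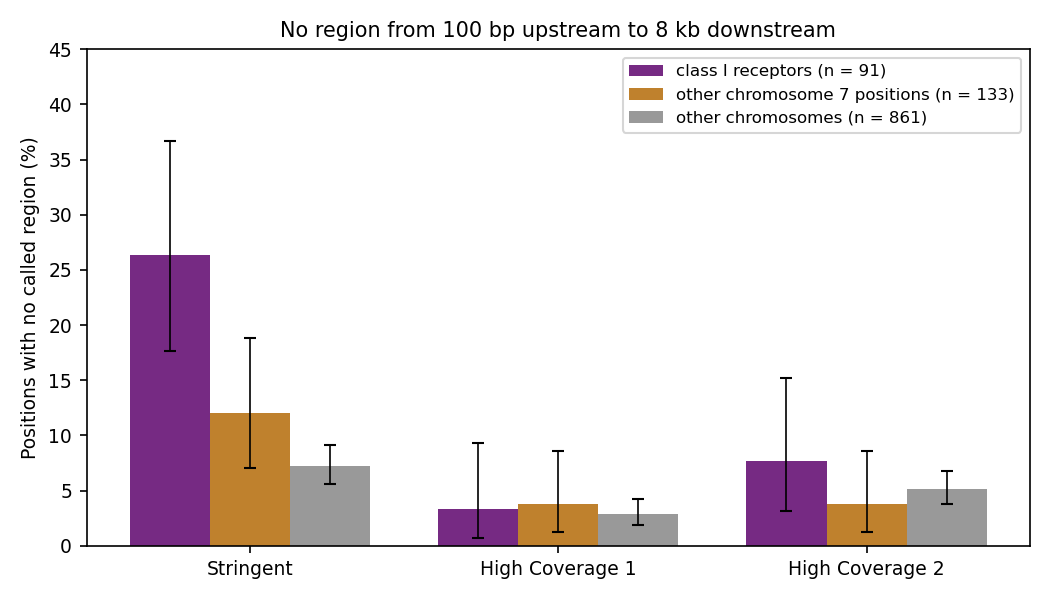
Percent of named positions with no called region from 100 bp upstream to 8 kb downstream (vertical axis, from 0) on each array, for the class I receptors, other chromosome 7 positions and positions on other chromosomes; bars are shares and error bars exact 95% binomial intervals. On Stringent the class I bar stands at 26.4% against 7.20% on other chromosomes, while on both High Coverage arrays the class I bars stay under 8%.

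Where a downstream Stringent region existed, it tended to be long and to lie kilobases away, as over all positions. The highest-scoring one began a median of 3567 bp after the position (quartiles 2197 and 4707) and had a median length of 543.5 bp (264 and 576.5). Over all positions the median start was 2963 bp and the median length 541 bp (405 and 590). The median score of these regions was 13.2 in class I against 16.5 in all. At 35 of 38 members, or 92.1%, the highest-scoring downstream region outscored the region at the position, where 75.2% of all such positions showed this. At Olfr611 it ran from 2196 to 2941 bp downstream with a score of 17.8. At Olfr656 it ran from 3617 to 4191 bp with 16.0, and at Olfr668 from 2202 to 2767 bp with 15.0. The highest-scoring downstream regions of the High Coverage arrays had median lengths of 218 and 275 bp, against 282 and 310 bp over all positions. They overlapped the Stringent one in 34 of 63 and in 31 of 59 members, or 54.0% and 52.5%, against 56.1% and 60.6% over all positions. Among the overlaps were Olfr656, with High Coverage 1 from 3663 to 4191 bp, and Olfr668, with 2255 to 2772 bp. High Coverage 2, with no peak at the position of Olfr656, had its best downstream region there at 4697 to 4851 bp with a score of 4.09.

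Members without a Stringent signal at the position could still have one downstream. Olfr594, with 0.681 on Stringent at the position, had a region from 2818 to 3416 bp downstream with a score of 18.1, and High Coverage 1 placed one from 2863 to 3421 bp with 21.5. Olfr584 had a Stringent region from 3940 to 4485 bp with 17.6. Both were among the 5 members whose highest percentile over the 3 arrays was lowest, with Olfr686, Olfr618 and Olfr568. Those other 3 had no Stringent region in the whole stretch. At Olfr572 both High Coverage arrays placed a strong region from about the same base, 3514 to 3846 bp with 16.5 and 3504 to 3918 bp with 28.8, where Stringent had none.

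Single receptors listed for their names or ligands followed the same patterns. Olfr690 and Olfr691, neighbours reported to respond to short-chain carboxylic acids, both had regions on both High Coverage arrays. Olfr690, at 112480361 on the minus strand, scored 2.11 on Stringent, under the threshold, and 3.48 and 3.59 on High Coverage. It had a Stringent region from 1560 to 2131 bp downstream, with a score of 10.9. Olfr691, at 112490814, scored 2.97, 4.67 and 13.3, and its Stringent region began 16 bp after the position, where the High Coverage regions began 54 and 49 bp before it. Olfr692, known from the vomeronasal organ, scored 1.38, 3.08 and 2.08, with a region on High Coverage 1. It had no Stringent region in the whole stretch, yet both High Coverage arrays had one downstream, from 806 bp with a score of 17.1 and from 822 bp with 16.3. Olfr543, at the other end, scored 1.68 on Stringent and 4.43 and 8.32 on High Coverage. Olfr547 had no region at the position on any array, with 0.693, 1.64 and 2.23.

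Along the cluster, cut into 6 equal lengths of 481 kb, every length held members with and without a region on each array. The Stringent share was lowest in the third, from Olfr608 to Olfr631, with 5 of 15 (33.3%; 11.8 to 61.6), and highest in the last, from Olfr666 to Olfr692, with 11 of 19 (57.9%; 33.5 to 79.7). The intervals overlapped throughout. The second length, from Olfr577 to Olfr604, had the lowest High Coverage shares, 4 of 18 (22.2%) on each array, and 8 of its 18 members had no region at the position on any array. In the fourth, from Olfr633 to Olfr649, all 11 members had a region on at least 1 array, with 7 on High Coverage 1 and 6 on each of the others. The longest unbroken run of members without a Stringent region was 6, from Olfr568 to Olfr577, and the longest runs with one were 5, from Olfr646 to Olfr652 and from Olfr666 to Olfr670.

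By strand, Stringent had a region at 20 of 47 plus strand members (42.6%) and 21 of 44 minus strand members (47.7%). High Coverage 1 had 13 (27.7%; 15.6 to 42.6) against 20 (45.5%; 30.4 to 61.2). High Coverage 2 had 14 (29.8%; 17.3 to 44.9) against 22 of 44 (34.6 to 65.4). The minus strand had the higher share on all 3 arrays, and the intervals overlapped on each. Shares by strand over all named positions were not computed, so this is not read as a trait of the cluster.

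Calls were also compared between neighbouring members, in 76 pairs a median of 17095.5 bp apart (5809 to 354085). Both had a Stringent region in 16 pairs, 1 had it in 41 and neither in 19. With a region at 45.1% of members, unlike pairs would be common without any tie between neighbours. The counts over all neighbouring named positions were not computed, so these are not read as a trait of neighbours. In the 13 pairs that point away from each other, both had one in 6, including the closest 3. Olfr551 and Olfr552, 5809 bp apart, scored 3.25 and 6.88 on Stringent, and neither had a High Coverage region. Olfr591 and Olfr592, 7336 bp apart, scored 13.6 and 5.86, again on Stringent alone. Olfr668 and Olfr669, 6107 bp apart, scored 5.37 and 12.6, and Olfr669 had a High Coverage 2 region too, beginning 75 bp after its position. On High Coverage 2, no such pair had a region at both. Of the 3 closest pairs on the same strand, Olfr642 and Olfr643 (6341 bp) and Olfr639 and Olfr640 (5987 bp) had High Coverage regions at both members but a Stringent region at the second named alone. Olfr639 scored 1.18 on Stringent with 5.45 and 3.97 on High Coverage. Its neighbour Olfr640 scored 5.03, 1.08 and -0.102, and its High Coverage regions began 39 and 74 bp after the position and peaked beyond the window. In the third pair, Olfr667 and Olfr668 (6577 bp), both had a Stringent region, and Olfr667 had one on High Coverage 2.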

How the data were processed

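Per the file headers, the authors made 1 MAT score per probe position from each array and no control array (bandwidth 50, gaps up to 30, 5 probes or more). The scores are on a natural log scale, per the file headers. The authors deposited called regions, each with a region score, and a table of promoter positions. Positions are in mm9, per the submitters' processing notes. The probe map named in the Stringent headers differs from that of the High Coverage headers, although the deposited positions are the same.

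Of 2313448 probes, 5.42% had a score of exactly 0 on all arrays and were left out. Regions counted when they overlapped the window by at least 1 bp. The named receptors were the 8 whose lowest percentile was highest, the 6 each way with the widest gap between Stringent and the nearer High Coverage array, the 5 widest High Coverage gaps, the 5 whose highest percentile was lowest, the ends, the closest pairs and 6 listed genes. Members, lists and rules were chosen with earlier results of these data known. Steps were tested on simulated data. Figures were drawn with matplotlib 3.10.9, and values were computed with scipy 1.17.1, pandas 2.3.3 and numpy 2.4.6 under Python 3.11.15.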

Additional observations from a re-analysis of the deposited data

How the results depend on the processing

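No paired analysis was possible because Stringent has 1 array and its label carries no number. Of 72 alternatives, 56 stayed within the interval or spread of the value they were set against, or within 1.5 times a count. A window of 500 bp gave a High Coverage 1 region share of 51.6% and median percentiles of 95.3 and 94.4 on High Coverage 1 and 2. With equal numbers of regions the High Coverage shares were 19.8% and 27.5%. The mean score in the window gave median percentiles of 86.8, 72.3 and 73.9 and 17 members higher on Stringent. The median and MAD scale gave 22 higher. With 50 bp on each side, 97.7% of members rose on Stringent. With 500 bp, 2 were lower on Stringent. With 1 High Coverage array left out, 6 to 10 members were higher, 1 to 2 were lower, and the mean High Coverage share was 36.3% to 39.6%. With a reach of 4 kb, chosen after seeing the data, 15.4% of members had no region on High Coverage 1 and 15.4% on High Coverage 2. Leaving out windows under 20 probes, also chosen then, gave region shares of 47.1%, 36.8% and 40.2%. Apart from equal numbers of regions, these alternatives are given for the class I members alone, with no share over all positions beside them. The number of arrays limits the precision of every value.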
